A study of Mus musculus with 2 samples.

Results

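The genes that supply acetyl-CoA and that write, erase and read histone acetylation were followed in cells from MC38 tumours. The module is a named list of 35 of the 32285 genes in the files, taken by symbol, with 7 supply genes, 10 writers (acetyltransferases), 12 erasers (deacetylases) and 6 readers (bromodomain proteins). MC38 is a mouse colon carcinoma line that forms tumours in mice. Immune cells were sorted by flow cytometry directly from dissected tumours at day 21, and 3′ single-cell RNA libraries were made from them. There is 1 group, tumours with no stated treatment or genotype, with 2 replicate libraries, so the design holds no treated and control samples. File names differ between the 2 libraries in a term that no label explains, so whether the mice also differed in genotype or strain is not known here. The comparisons below are between classes of cells within each library.

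Histone tails are acetylated by enzymes that use acetyl-CoA, which in the cytosol and nucleus comes from citrate through Acly or from acetate through Acss2. Acetylation weakens the hold of histones on DNA and is bound by bromodomain proteins, while deacetylases take the mark off. In tumours both the cancer cells and the immune cells around them depend on this supply for lipid synthesis as well as for chromatin.

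The libraries held 2749 and 2937 barcodes with 5688000 and 5862342 UMIs (unique molecular identifiers, each counting 1 captured RNA molecule once), and they shared 0 barcodes. After filters on detected genes, mitochondrial UMIs and doublets 2378 and 2801 barcodes were kept. The libraries differ as wholes: over the sums used here, Xist had UMIs in each class of replicate 1 and none in replicate 2, whereas 4 Y-linked genes had UMIs in each class of replicate 2 and none in replicate 1. Cells were classed by marker UMIs alone, with no member of the module in any gate. Barcodes with no Ptprc UMI (the gene of CD45, carried by most blood-derived cells), no Tyrobp or Cd3 UMI, under 5 C1q UMIs and under 3 fibroblast and endothelial UMIs formed the Ptprc-negative class of 440 and 544 barcodes with 846401 and 1156084 UMIs. Of these, 74 and 119 barcodes had an Mki67 or Top2a UMI and are called cycling, and 366 and 425 are called non-cycling. T cells were 92 and 287 barcodes with a Cd3d, Cd3e or Cd3g UMI and under 5 C1q UMIs (207373 and 423465 UMIs). Macrophages were 917 and 633 barcodes with 5 or more C1q UMIs, a Ptprc or Tyrobp UMI and no Cd3 UMI (1907767 and 936690 UMIs). A further 155 and 307 barcodes had both Cd3 UMIs and 5 or more C1q UMIs and were set aside.

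The Ptprc-negative class was proposed as tumour-like, and its markers did not bear that name out. Of 10 epithelial markers 9 were at 0 in replicate 1 and 6 in replicate 2, with 1 and 6 UMIs in all, and Epcam was at 0 in both. Barcodes without Ptprc also run against the label of sorted immune cells, and a barcode of few UMIs can lack a Ptprc UMI in a cell that expresses it. The median depth of the class was 1387.5 and 1552.5 UMIs, against 1216.5 and 1144 in T cells and 1525 and 1238 in macrophages. Ptprc itself was low, at 145 and 392 CPM (UMIs per 1000000 of the class) in T cells and 160 and 429 CPM in macrophages. With the leukocyte genes Laptm5, Coro1a, Srgn and Cd52 also required at 0, 57 and 97 cycling and 236 and 295 non-cycling barcodes remained. The class is therefore named by its gate throughout. All 11 macrophage markers had UMIs in it, and their summed level was 987 and 395 CPM (UMIs scaled to a total of 1000000 for the class), against 1871 and 2576 CPM in T cells and 28625 and 15102 CPM in macrophages. All 3 Cd3 genes are at 0 in it by the gate, and 7 and 5 of 14 T cell markers were at 0. The part of this RNA in the results below was not tested. T cells, too, are named by their gate, and 43 and 133 of them had 2 or more Cd3 UMIs. Their 14 T cell markers summed to 2247 and 3030 CPM, against 1871 and 2576 CPM for their macrophage markers. Their 7 fibroblast markers summed to 588 and 642 CPM. The 357 and 325 CPM in Ptprc-negative barcodes are no fair comparison. That gate left out barcodes with 3 or more fibroblast or endothelial UMIs, and the T cell gate had no such limit. The T cell class thus held RNA of other cell types, and its part in the comparisons was not tested. Another 275 and 461 Ptprc-negative barcodes with 3 or more fibroblast or endothelial UMIs were left out by the gate. All 10 epithelial markers were at 0 in them and their summed fibroblast markers reached 2129 and 3738 CPM, so results are also given with them where they change a call.

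Levels are in CPM of the summed UMIs of a class in a library, and each UMI marks the 3′ end of 1 molecule, so levels are not scaled by transcript length. The members are low in these data. By their mean over both libraries, the members of the Ptprc-negative class lay between 2.20 CPM (Acss2, and Hdac8 at the same value) and 86.8 CPM (Brd2). In T cells they lay between 2.36 CPM (Acss2 and Sirt6) and 99.98 CPM (Brd2), and in macrophages between 1.06 CPM (Hdac8) and 90.8 CPM (Brd2).

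**Figure D1:**
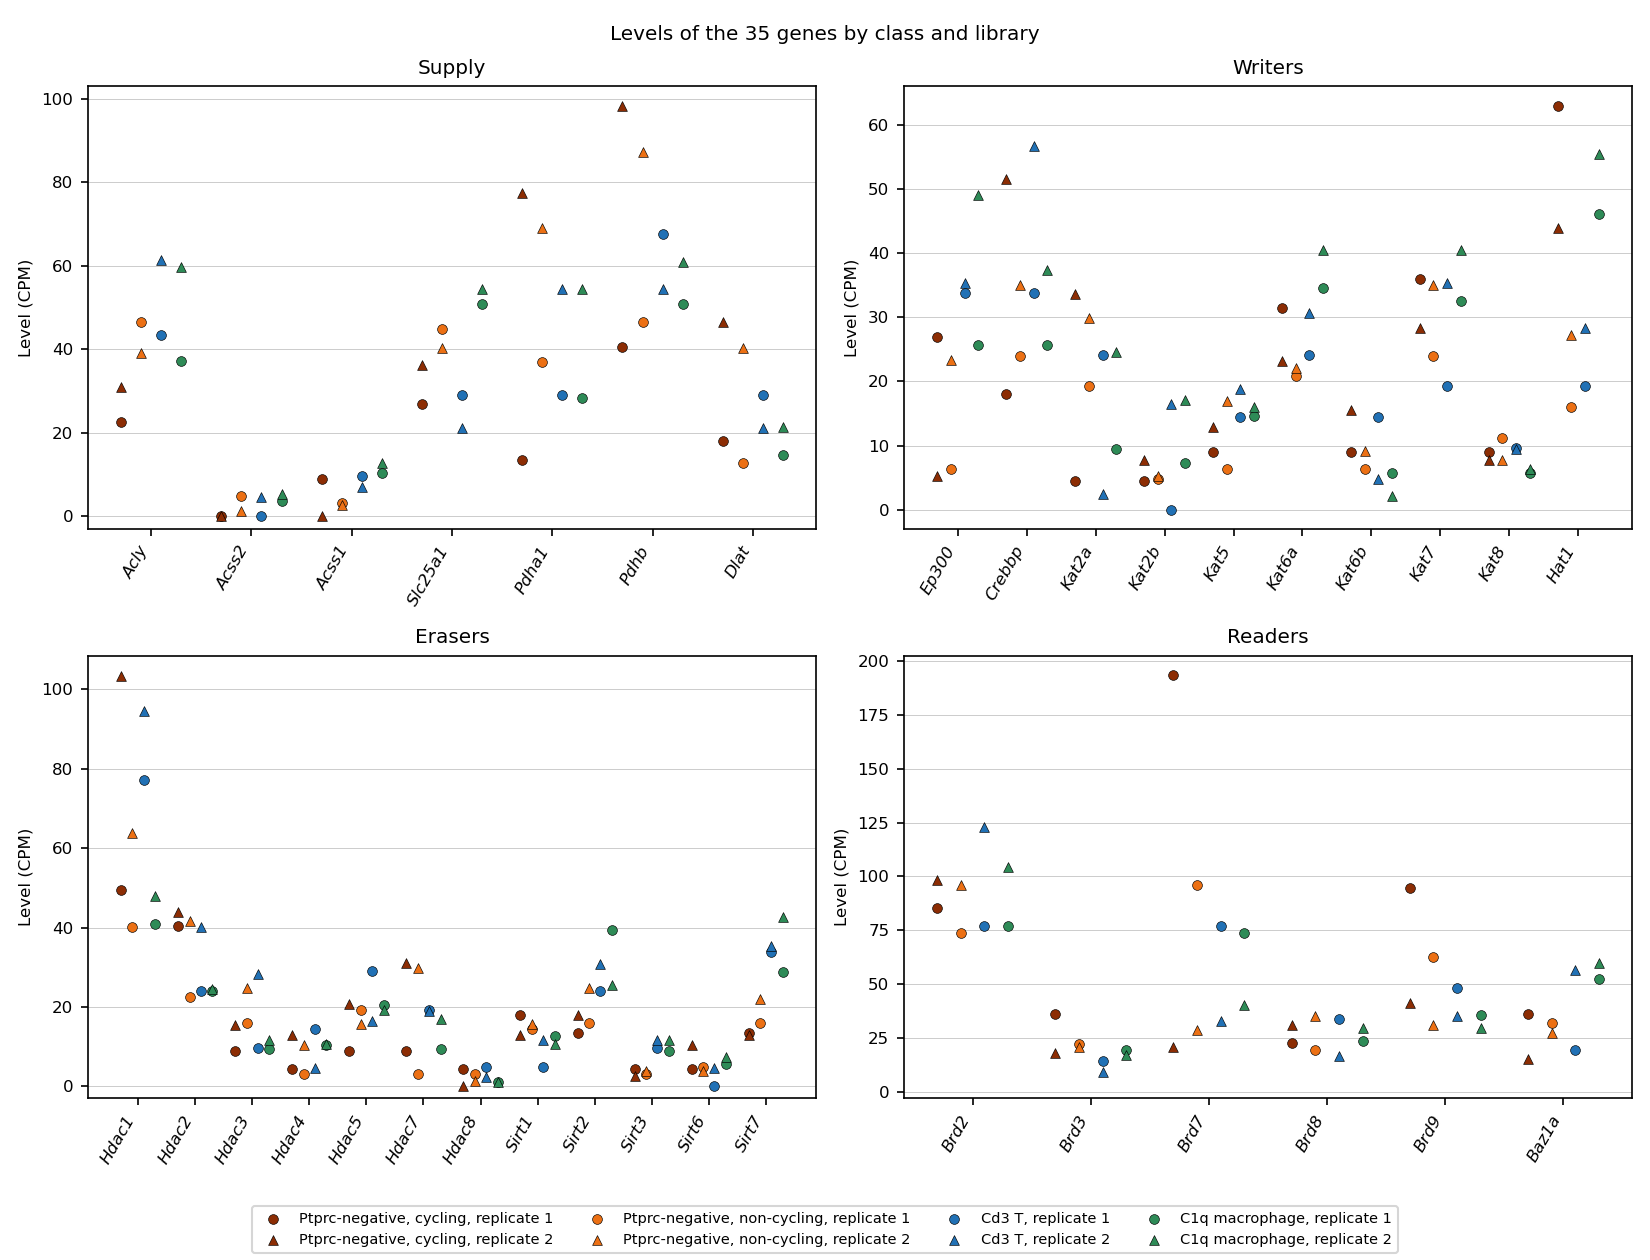
Level of each of the 35 genes (vertical axis, CPM of summed UMIs, linear) in cycling and non-cycling Ptprc-negative barcodes, Cd3 T cells and C1q macrophages, 1 point per library (circles replicate 1, triangles replicate 2). Brd7 in cycling Ptprc-negative barcodes stood at 20.7 CPM in replicate 2 and 193 CPM in replicate 1.

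The edgeR quasi-likelihood test was run over all genes on 8 sums (4 classes in 2 libraries) with the library as a block, and 24 of the 35 members passed its filter on low counts. The 11 that did not pass were the acetyl-CoA synthetases Acss2 and Acss1, the acetyltransferases Kat2b, Kat5, Kat6b and Kat8, and the deacetylases Hdac4, Hdac8, Sirt1, Sirt3 and Sirt6, with 9 UMIs (Hdac8) to 78 UMIs (Kat5) over the 8 sums. The p-values below rest on the spread of class differences over 2 libraries, and part of that spread may be technical. The labels do not say whether the libraries came from separate animals, but Xist UMIs in one library alone and Y-linked UMIs in the other alone, macrophages included, mean that the mice differed in sex.

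Against macrophages, 3 tested members were lower in Ptprc-negative barcodes and 0 were higher at an edgeR adjusted p under 0.05: the acetyltransferase gene Ep300, the deacetylase gene Sirt7 and the bromodomain gene Baz1a. Of all 6392 genes tested, 42.5% were called in this comparison, 18.6% higher and 23.9% lower, so 3 of 24 is no excess of calls in the module. The median log2 fold change of the 24 was 0.05, against -0.03 over all genes. Against T cells 0 of 24 members were called, where 13.1% of all genes were, 2.5% higher and 10.6% lower. In that comparison 1 member, Sirt7, had an unadjusted edgeR p under 0.05, as did 1740 of the 6392 genes, and DESeq2 called 0 members with 0 at an unadjusted p under 0.05. The median of the members was 0.13 and that of all genes 0.0088. With the stromal barcodes let in, an alternative added after the data were seen that brings more UMIs, 7 of 32 tested members were called over macrophages, 1 higher and 6 lower, where 41.7% of all genes were, 19.1% higher and 22.7% lower. Over T cells 1 was then lower, where 13.5% of all genes were called, 3.31% higher and 10.2% lower.

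These folds rest on few UMIs, and their errors were wide. The SE of the members' log2 fold changes against T cells ran from 0.28 to 0.86 with a median of 0.44, and against macrophages from 0.24 to 0.57 with a median of 0.34.

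**Figure D2:**
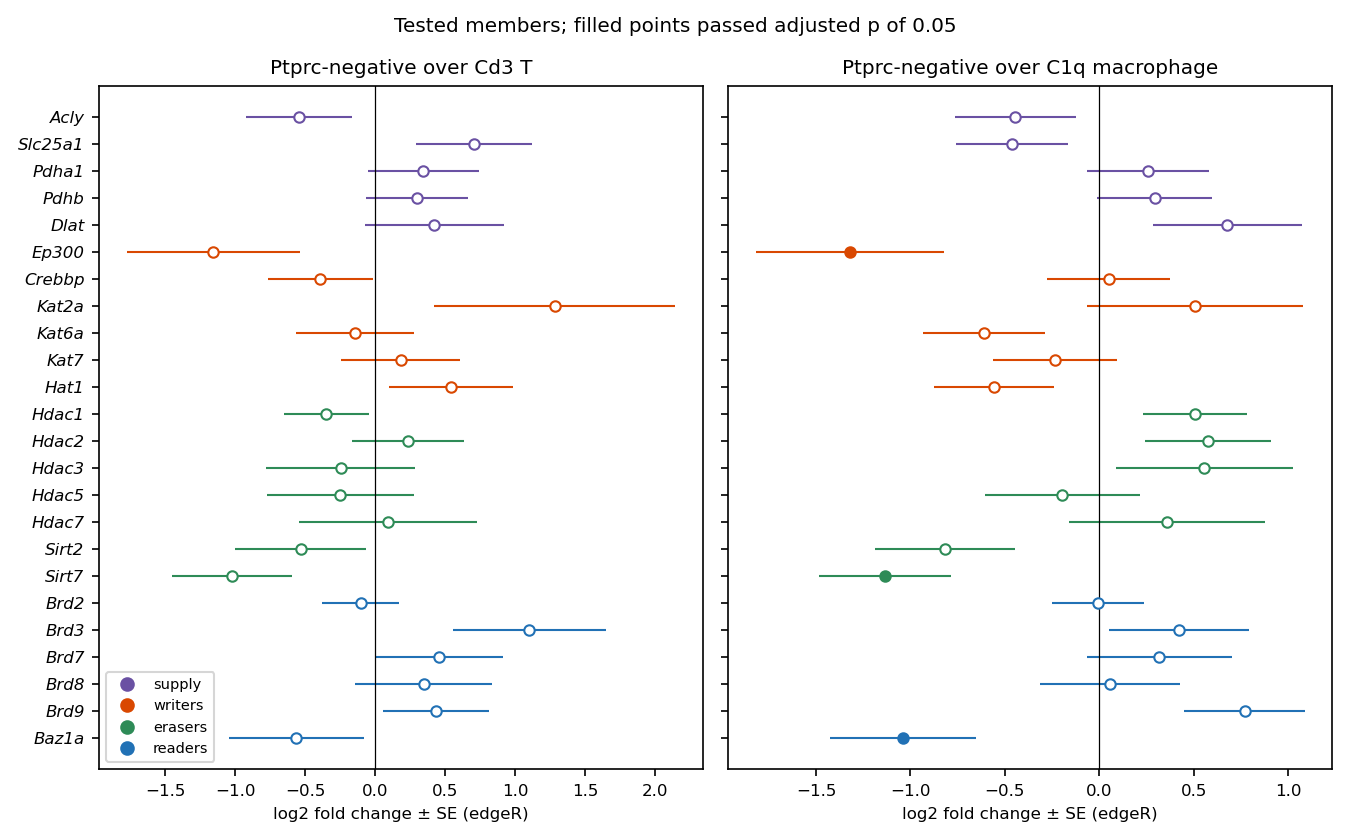
Log2 fold change ± SE from edgeR (horizontal axis) for the 24 tested members in Ptprc-negative barcodes over Cd3 T cells (left) and over C1q macrophages (right), coloured by role. The 3 filled points, Ep300 at -1.32, Sirt7 at -1.14 and Baz1a at -1.04 on the right, passed an adjusted p of 0.05, and the open points did not.

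Among the supply genes, Acly, the ATP citrate lyase that cleaves exported citrate into acetyl-CoA (ENSMUSG00000020917; chromosome 11, 100476353 to 100528000, minus strand; gene coordinates here and below are on GRCm38), was detected in each class of both libraries. It had 40.2 and 36.3 CPM in Ptprc-negative barcodes of replicates 1 and 2, against 43.4 and 61.4 CPM in T cells and 37.2 and 59.8 CPM in macrophages. Both Ptprc-negative values lay below both T cell values, without passing the test (log2 fold change -0.55, SE 0.38, edgeR adjusted p = 0.390), and the values overlapped those of macrophages. Within the class Acly had 22.5 and 31.0 CPM in cycling barcodes, against 46.5 and 39.0 CPM in non-cycling ones, again short of the threshold (log2 fold change -0.88, SE 0.45, edgeR adjusted p = 0.653).

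Acss2, the acetyl-CoA synthetase that makes nucleocytosolic acetyl-CoA from acetate (ENSMUSG00000027605; chromosome 2, 155517948 to 155585724, plus strand), was close to the limit of detection. It had 3 and 1 UMIs in Ptprc-negative barcodes, 0 and 2 in T cells and 7 and 5 in macrophages, which is 3.54 and 0.865, 0 and 4.72, and 3.67 and 5.34 CPM. In cycling Ptprc-negative barcodes it had 0 UMIs in both libraries, where 3 UMIs would be 13.5 and 7.75 CPM. No difference in Acss2 between classes could be detected at this depth. Acss1, the mitochondrial acetyl-CoA synthetase, had 4.73 and 1.73 CPM in Ptprc-negative barcodes (4 and 2 UMIs), against 9.64 and 7.08 CPM in T cells (2 and 3 UMIs) and 10.5 and 12.8 CPM in macrophages (20 and 12 UMIs). It was below the filter here, and with the stromal barcodes let in it was lower than in macrophages (log2 fold change -2.95, edgeR adjusted p = 0.00575). Slc25a1, the mitochondrial carrier that exports citrate for Acly, had 40.2 and 38.9 CPM in Ptprc-negative barcodes, against 28.9 and 21.3 CPM in T cells and 50.8 and 54.4 CPM in macrophages. The class thus lay between the others in both libraries without passing either test (log2 fold change 0.70, SE 0.41, edgeR adjusted p = 0.302 over T cells; -0.46, SE 0.30, 0.231 over macrophages).

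The pyruvate dehydrogenase subunits, which make acetyl-CoA inside mitochondria, differed between the libraries within the Ptprc-negative class. Pdha1, the catalytic alpha subunit (ENSMUSG00000031299; chromosome X, 160122209 to 160138413, minus strand), had 71.8 CPM in replicate 2 and 30.7 CPM in replicate 1 of the Ptprc-negative class, a ratio of 2.34 with a 95% counting interval of 1.49 to 3.78. Pdhb, the beta subunit (ENSMUSG00000021748; chromosome 14, 8165996 to 8173025, minus strand), had 90.8 CPM in replicate 2 and 44.9 CPM in replicate 1, a ratio of 2.02 (1.38 to 3.01). Dlat, the acetyltransferase core of the complex (ENSMUSG00000000168; chromosome 9, 50634633 to 50659780, minus strand), had 42.4 CPM in replicate 2 and 14.2 CPM in replicate 1, a ratio of 2.99 (1.57 to 6.18). In the Ptprc-negative barcodes with 3 or more stromal UMIs, which the first gate left out, the ratios were 2.56 (1.71 to 3.94), 1.79 (1.31 to 2.46) and 2.58 (1.54 to 4.54) for Pdha1, Pdhb and Dlat. In macrophages Pdha1 alone of the 3 had an interval that left out 1, at 1.92 (1.29 to 2.87), with Pdhb at 1.20 (0.847 to 1.68) and Dlat at 1.45 (0.777 to 2.68). In T cells the ratios ran both ways, with Pdha1 at 1.88 (0.743 to 5.64), Pdhb at 0.805 (0.397 to 1.69) and Dlat at 0.735 (0.234 to 2.51), and each interval held 1. These genes were singled out after their values were seen. A ratio away from 1 was common: in the Ptprc-negative class 35.4% of the 8822 genes with 10 or more UMIs had an interval that left out 1, 26.8% of the 8822 upward, with a median ratio of 1.31. The intervals cover counting error only, and differences between animals, sexes, preparations, library runs and whatever the term in the file names stands for cannot be told apart with 1 library each.

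The promoters of these subunits are shown because the library ratios of all 3 had intervals above 1 in both sets of Ptprc-negative barcodes. In macrophages all 3 ratios were also above 1, and in T cells that of Pdha1 alone was. Each runs from 250 bases before to 50 bases after the gene's RefSeq start on GRCm38.p6, read 5′ to 3′ on the gene's strand. Capitals mark any match on either strand to 1 of 5 motifs. RefSeq starts can differ from the gene coordinates given here, which come from another annotation. The CCAAT box was searched as CCAAT and the GC box as GGGCGG. The E-box was searched as CACGTG. The ETS core was searched as CCGGAAG. The TATA box was searched as TATAAA.
Pdha1, chrX:160138381-160138680, minus strand: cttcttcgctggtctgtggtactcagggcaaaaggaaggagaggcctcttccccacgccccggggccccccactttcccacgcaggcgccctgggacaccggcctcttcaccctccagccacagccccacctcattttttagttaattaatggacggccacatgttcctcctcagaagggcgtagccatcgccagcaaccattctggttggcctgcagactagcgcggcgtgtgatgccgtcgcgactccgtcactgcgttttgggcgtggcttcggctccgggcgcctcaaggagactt
Pdhb, chr14:8172943-8173242, minus strand: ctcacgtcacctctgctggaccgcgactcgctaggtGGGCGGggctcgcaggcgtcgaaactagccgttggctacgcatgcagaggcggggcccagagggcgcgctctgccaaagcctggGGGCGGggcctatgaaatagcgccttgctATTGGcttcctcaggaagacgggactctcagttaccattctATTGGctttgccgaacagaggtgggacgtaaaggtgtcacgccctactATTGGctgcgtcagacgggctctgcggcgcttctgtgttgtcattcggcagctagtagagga
Dlat, chr9:50659731-50660030, minus strand: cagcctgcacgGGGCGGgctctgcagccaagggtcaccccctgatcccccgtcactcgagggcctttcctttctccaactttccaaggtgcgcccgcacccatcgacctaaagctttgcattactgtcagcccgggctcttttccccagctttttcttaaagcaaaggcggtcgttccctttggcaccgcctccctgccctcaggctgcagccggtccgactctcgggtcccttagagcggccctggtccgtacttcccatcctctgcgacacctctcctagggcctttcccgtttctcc
Pdhb held 3 CCAAT and 2 GC boxes, Dlat 1 GC box and Pdha1 none of the 5 motifs, so the 3 windows shared no motif from this set. Promoters were given for 30 of the 35 members. In the first listed promoter of each, 22 held a GC box, 13 a CCAAT box, 9 an ETS core, 5 an E-box and 1 a TATA box. Further promoters, which some members have, were left out of these counts, and some of them held a motif. The same motifs were in 35.7, 37.4, 8.86, 7.15 and 13.6% of all 32851 promoters of this length, in that order. That background counts every promoter, so a gene with several enters more than once. A match of letters is a description and not a bound site.

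Among the writers, Ep300 encodes the acetyltransferase p300, a coactivator that acetylates histone H3 at enhancers (ENSMUSG00000055024; chromosome 15, 81585351 to 81652077, plus strand). It had 11.8 and 17.3 CPM in Ptprc-negative barcodes (10 and 20 UMIs), against 33.8 and 35.4 CPM in T cells (7 and 15 UMIs) and 25.7 and 49.1 CPM in macrophages (49 and 46 UMIs). Both Ptprc-negative values lay below those of both other classes in both libraries. The log2 fold change over macrophages was -1.32 (SE 0.50, edgeR adjusted p = 0.0490), and over T cells it was -1.16 (SE 0.62, 0.256). With the stromal barcodes let in the fold over macrophages was -1.08 (adjusted p = 0.0182). The call without them was close to the threshold and ended with DESeq2 (adjusted p = 0.213), without the library block (0.136) and in 3 other settings. With the cycling and non-cycling sums weighted equally, the fold was -0.83 in replicate 1 alone and -1.83 in replicate 2 alone. Within the class the libraries ran opposite ways, with 27.0 and 5.16 CPM in cycling barcodes and 6.41 and 23.4 CPM in non-cycling ones. These levels rest on 8 UMIs in cycling and 22 in non-cycling barcodes over both libraries. The 5.16 CPM of replicate 2 lies below 7.75 CPM, the level of 3 UMIs there. Its promoter, shown as that of a called gene with the same marking, held 1 GC box. This window follows the RefSeq start and lies wholly inside the gene coordinates given above.
Ep300, chr15:81585964-81586263, plus strand: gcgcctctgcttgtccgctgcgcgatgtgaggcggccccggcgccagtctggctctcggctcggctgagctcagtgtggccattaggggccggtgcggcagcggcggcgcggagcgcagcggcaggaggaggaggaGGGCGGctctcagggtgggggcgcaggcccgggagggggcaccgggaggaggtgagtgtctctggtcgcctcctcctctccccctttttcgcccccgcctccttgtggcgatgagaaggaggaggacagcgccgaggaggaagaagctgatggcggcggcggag

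Crebbp, which encodes the closely related acetyltransferase CBP, did not show the Ep300 pattern. It had 22.4 and 40.7 CPM in Ptprc-negative barcodes, against 33.8 and 56.7 CPM in T cells and 25.7 and 37.4 CPM in macrophages, at 0.05 (SE 0.33) on the log2 scale over macrophages. Whether the folds of Ep300 and Crebbp differ was not tested. Kat2a, the GCN5 acetyltransferase of the SAGA and ATAC complexes (ENSMUSG00000020918; chromosome 11, 100704746 to 100712465, minus strand), had 15.4 and 31.1 CPM in Ptprc-negative barcodes, against 24.1 and 2.36 CPM in T cells and 9.44 and 24.6 CPM in macrophages. The T cell values are 5 UMIs and 1 UMI, and the log2 fold change over T cells, 1.28, had the largest SE of the tested members there, 0.86 (edgeR adjusted p = 0.376).

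Kat6a, a MYST acetyltransferase, had 23.6 and 22.5 CPM in Ptprc-negative barcodes, against 24.1 and 30.7 CPM in T cells and 34.6 and 40.6 CPM in macrophages. Kat7, which acetylates histones at replication origins and promoters, had 27.2 and 32.9 CPM, against 19.3 and 35.4 CPM in T cells and 32.5 and 40.6 CPM in macrophages. Neither passed a test, although both Kat6a values lay below both macrophage values (log2 fold change -0.61, SE 0.32, edgeR adjusted p = 0.151; -0.82 and 0.0344 with the stromal barcodes). The untested writers Kat2b, Kat5, Kat6b and Kat8 had between 4.73 and 15.6 CPM in Ptprc-negative barcodes, from 4 to 18 UMIs a library.

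Hat1, which acetylates newly made histone H4 before it is put into chromatin, was the member with the lowest p between cycling and non-cycling barcodes of the class. It had 63.0 and 43.9 CPM in cycling barcodes, against 16 and 27.3 CPM in non-cycling ones, so the groups did not overlap. The log2 fold change was 1.05 (SE 0.44), with an unadjusted edgeR p of 0.0349 and an adjusted p of 0.538. In this comparison 0.172% of all genes were called, 5 higher (0.0782%) and 6 lower (0.0939%), and 0 of 24 members. Mki67 and Top2a, at 0 in non-cycling barcodes by the gate, were not left out of all genes. They can thus be among those called higher. DESeq2 called 0 members, with 0 at an unadjusted p under 0.05. The split of calls moved with the scaling, to 5 higher and 4 lower with total UMIs and 4 higher and 12 lower with DESeq2. The median fold of all genes was -0.16 under TMM and 0.04 with total UMIs, and the members' median was -0.12 under TMM. Cycling barcodes were also deeper, with a median of 2728 and 2541 UMIs against 1226.5 and 1382 in non-cycling ones. Whether the cycling difference in Ptprc-negative barcodes differed from that in macrophages was tested as an interaction over 6520 genes, of which 0.046% were called and 0 of 24 members, with 0 members at an unadjusted p under 0.05. Over macrophages, both Hat1 values of the whole class were lower, at 28.4 and 32.9 CPM against 46.1 and 55.5 CPM, without passing the test (log2 fold change -0.56, SE 0.32, edgeR adjusted p = 0.180).

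Among the erasers, Sirt7, a nuclear sirtuin that removes acetyl groups from lysine 18 of histone H3 (ENSMUSG00000025138; chromosome 11, 120618372 to 120625240, minus strand), had the lowest p of all members in both class comparisons. It had 15.4 and 19.0 CPM in Ptprc-negative barcodes (13 and 22 UMIs), against 33.8 and 35.4 CPM in T cells (7 and 15 UMIs) and 28.8 and 42.7 CPM in macrophages (55 and 40 UMIs). Both Ptprc-negative values lay below those of both other classes. The log2 fold change was -1.14 over macrophages (SE 0.35, edgeR adjusted p = 0.0194) and -1.03 over T cells (SE 0.43, 0.144). With the stromal barcodes let in Sirt7 was lower both over macrophages (-1.42, adjusted p = 0.00214) and over T cells (-1.27, 0.0478). The call over macrophages ended with DESeq2 (adjusted p = 0.111), with the class not split by cycling (0.0927) and with a stricter cycling gate (0.0609). In 1 library the fold was -0.88 (replicate 1) or -1.21 (replicate 2). Its promoter held 2 ETS cores and 1 GC box. Set by the RefSeq start, most of this window lies inside the gene coordinates given above.
Sirt7, chr11:120624965-120625264, minus strand: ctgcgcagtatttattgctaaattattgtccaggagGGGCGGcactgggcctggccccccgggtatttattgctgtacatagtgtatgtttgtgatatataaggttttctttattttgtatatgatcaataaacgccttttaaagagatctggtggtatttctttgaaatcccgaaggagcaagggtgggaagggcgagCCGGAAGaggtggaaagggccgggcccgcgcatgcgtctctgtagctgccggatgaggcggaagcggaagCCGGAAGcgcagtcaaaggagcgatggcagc

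Sirt2, a largely cytosolic sirtuin that also acts on histone H4, had 15.4 and 22.5 CPM in Ptprc-negative barcodes, against 24.1 and 30.7 CPM in T cells and 39.3 and 25.6 CPM in macrophages. Both values were below those of each other class, but the fold over macrophages missed the threshold (-0.82, SE 0.37, edgeR adjusted p = 0.0941) and passed it with the stromal barcodes let in (-0.997, 0.0325). The class I deacetylases Hdac1, Hdac2 and Hdac3, which work in nuclear corepressor complexes, had positive folds over macrophages instead, and none passed. Hdac8, also of class I, was not tested. Hdac1 had 42.5 and 77.0 CPM in Ptprc-negative barcodes, against 77.2 and 94.5 CPM in T cells and 40.9 and 48.0 CPM in macrophages. Hdac2 had 27.2 and 42.4 CPM, against 24.1 and 40.1 CPM in T cells and 24.1 and 24.6 CPM in macrophages. Their log2 folds over macrophages, 0.51 (SE 0.28) and 0.58 (SE 0.34), did not pass (edgeR adjusted p = 0.163 and 0.189). With the stromal barcodes Hdac1 did, at 0.66 (0.0449).

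Hdac3, the catalytic unit of the NCoR and SMRT corepressors, had 14.2 and 21.6 CPM in Ptprc-negative barcodes, against 9.64 and 28.3 CPM in T cells and 9.44 and 11.7 CPM in macrophages, and passed no test. Of the class IIa enzymes, which shuttle between nucleus and cytoplasm, Hdac5 had 16.5 and 17.3 CPM in Ptprc-negative barcodes, against 28.9 and 16.5 CPM in T cells and 20.4 and 19.2 CPM in macrophages. Hdac7, of the same class, differed most between libraries among the erasers and was singled out after its values were seen. It had 30.3 CPM in replicate 2 and 4.73 CPM in replicate 1 of the Ptprc-negative class, a ratio of 6.41 (2.29 to 24.8) that rests on 35 and 4 UMIs. The ratio was 1.97 (1.16 to 3.46) in the stromal barcodes, 1.81 (0.864 to 3.76) in macrophages and 0.979 (0.262 to 4.44) in T cells. The untested erasers had between 0.865 and 15.4 CPM in the class, the highest being Sirt1, a nuclear sirtuin, at 15.4 and 14.7 CPM against 4.82 and 11.8 CPM in T cells and 12.6 and 10.7 CPM in macrophages.

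Among the readers, Baz1a, a bromodomain subunit of the ACF and CHRAC nucleosome remodellers (ENSMUSG00000035021; chromosome 12, 54892989 to 55014348, minus strand), had 33.1 and 23.4 CPM in Ptprc-negative barcodes (28 and 27 UMIs), against 19.3 and 56.7 CPM in T cells (4 and 24 UMIs) and 52.4 and 59.8 CPM in macrophages (100 and 56 UMIs). Both values lay below both macrophage values and overlapped those of T cells. The log2 fold change over macrophages was -1.04 (SE 0.39, edgeR adjusted p = 0.0452), -0.62 in replicate 1 alone and -1.43 in replicate 2 alone. With the stromal barcodes it was -1.21 (adjusted p = 0.0155). The call without them ended with DESeq2 (adjusted p = 0.177), without the library block (0.134), with the class not split by cycling (0.148) and in 4 other settings. With the mixed Cd3 and C1q barcodes counted as T cells, Baz1a (-1.15, 0.0151), Sirt7 (-1.29, 0.00880) and Sirt2 (-1.05, 0.0307) were lower and Dlat (1.06, 0.0392) and Hdac2 (0.89, 0.0489) higher than in that enlarged class, in which 36.9% of all genes were called.

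T cells with a Cd8a or Cd8b1 UMI, 10 and 88 barcodes, held too few UMIs for most members. Baz1a had 1 and 18 UMIs in them, against 3 and 6 in T cells without a Cd8 UMI (82 and 199 barcodes). In replicate 2 this was 134 CPM (95% exact Poisson interval 79.5 to 212) against 20.7 CPM (7.61 to 45.2), and in replicate 1 47.3 CPM (1.20 to 263) against 16.1 CPM (3.32 to 47.1). The pair was chosen after its values were seen and has no test, and the intervals cover counting error only. In the same barcodes Ep300 had 4 and 5 UMIs, Acly 1 and 6, Kat2a 2 and 0, and Acss2 0 and 0.

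Brd7, a bromodomain subunit of the PBAF chromatin remodeller (ENSMUSG00000031660; chromosome 8, 88331039 to 88362194, minus strand), differed between libraries in each class. In the Ptprc-negative class it had 25.9 CPM in replicate 2 and 122 CPM in replicate 1, a ratio of 0.213 (0.137 to 0.323). The ratio was 0.279 (0.199 to 0.387) in the stromal barcodes, 0.549 (0.373 to 0.790) in macrophages and 0.428 (0.194 to 0.937) in T cells, so Brd7 was lower in replicate 2 in 4 of 4 classes. Of all genes with 10 or more UMIs, 8.64, 8.8, 5.53 and 5.65% had an interval wholly below 1 in these classes, in that order. Brd9, a subunit of the non-canonical BAF complex, had 34.6 CPM in replicate 2 and 70.9 CPM in replicate 1 of the Ptprc-negative class, a ratio of 0.488 (0.319 to 0.740), and 0.428 (0.279 to 0.647) in the stromal barcodes. In macrophages its ratio was 0.839 (0.520 to 1.32) and in T cells 0.735 (0.309 to 1.83), and both intervals held 1. Over macrophages Brd9 stood at 0.77 on the log2 scale (SE 0.32; adjusted p = 0.0693 by edgeR). These genes, too, were singled out after their values were seen.

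The other readers passed no test between these classes. Brd2, a BET protein that binds acetylated histone H4, had 76.8 and 96.9 CPM in Ptprc-negative barcodes, against 77.2 and 123 CPM in T cells and 77.1 and 105 CPM in macrophages. Its fold over macrophages, -0.01 with an SE of 0.24, had the smallest error of any member. Brd3, also a BET protein, had 26.0 and 19.9 CPM, against 14.5 and 9.45 CPM in T cells and 19.4 and 17.1 CPM in macrophages, above both classes without passing either test (log2 fold change 1.10, SE 0.54, edgeR adjusted p = 0.216 over T cells). Brd8, a subunit of the NuA4 acetyltransferase complex, had 20.1 and 33.7 CPM, against 33.8 and 16.5 CPM in T cells and 23.6 and 29.9 CPM in macrophages.

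**Figure D3:**
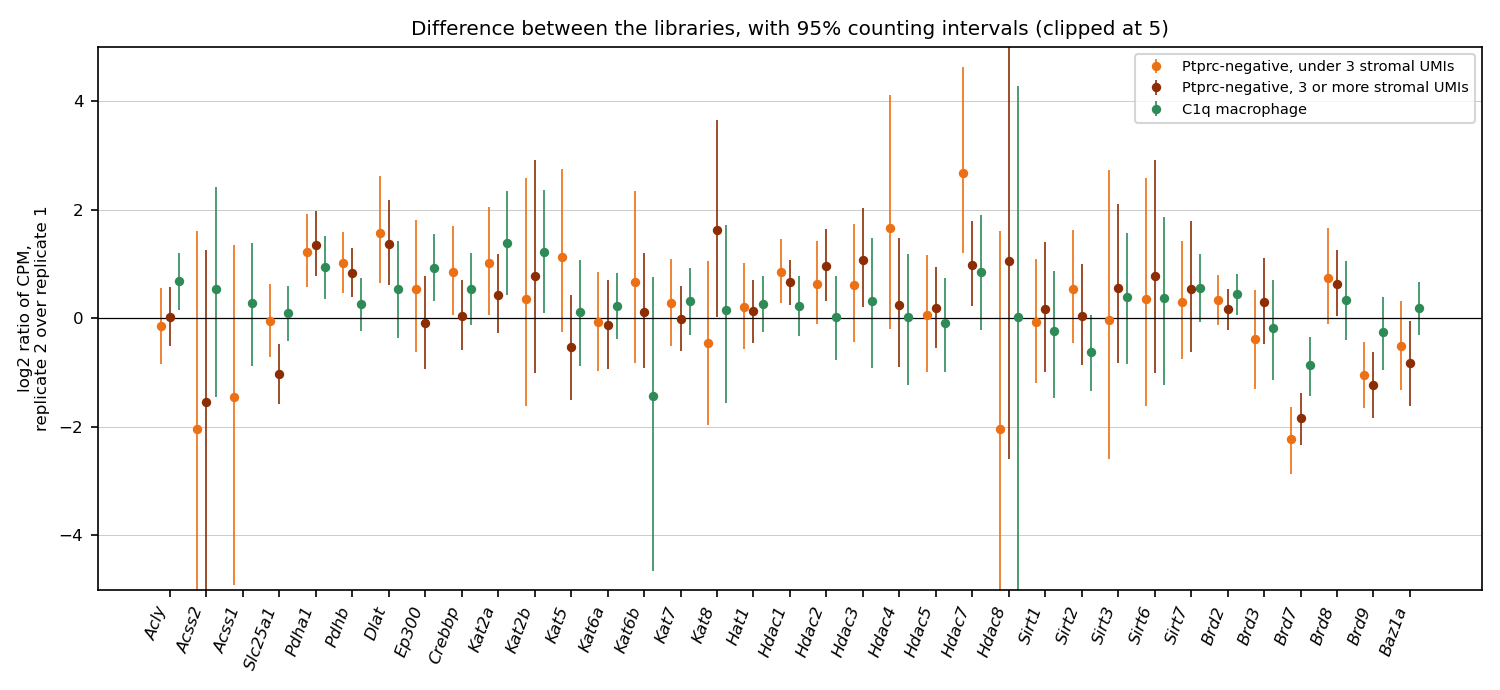
Log2 ratio of CPM, replicate 2 over replicate 1, with 95% counting intervals (vertical axis, clipped at 5) for each of the 35 genes in Ptprc-negative barcodes with under 3 and with 3 or more stromal UMIs and in macrophages. Brd7 lay below 0 in all 3 classes, and Pdha1 lay above 0 in all 3.

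Counted over the module, 9 of the 31 members with 10 or more UMIs in the Ptprc-negative class had a library ratio whose interval left out 1, 7 higher and 2 lower in replicate 2, where 35.4% of all genes did. The counts were 13 of 32 in the stromal barcodes (43.2% of all genes), 7 of 34 in macrophages (24.9%) and 2 of 23 in T cells (22.6%, with 17.0% higher and 5.65% lower in replicate 2). These shares are read against the background and show no excess in the module. The libraries also differed in the share of UMIs on Gm42418, a gene that overlaps ribosomal RNA repeats, which was 5.75 to 6.11% in T cells and macrophages of replicate 2 and 11.4 to 11.5% in those of replicate 1. The classes differed in composition too. In cycling and non-cycling Ptprc-negative barcodes the Gm42418 share was 1.83 and 3.62% in replicate 2 and 5.34 and 8.04% in replicate 1, below the other classes of the same library. Ribosomal protein genes held 31.1 to 38.0% of the UMIs of the Ptprc-negative sums, against 31.4 and 24.8% in T cells and 24.5 and 19.99% in macrophages of replicates 1 and 2. Their part in the ratios and in the class differences was not tested.

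Counts of members whose values did not overlap between classes can be read against the same count over all genes. Of the 24 tested members, 9 did not overlap between Ptprc-negative barcodes and T cells, 3 higher (Brd3, Hat1 and Slc25a1) and 6 lower (Hdac1, Sirt2, Kat6a, Acly, Sirt7 and Ep300), where 37.0% of all tested genes did not, 13.3% higher and 23.7% lower. Between Ptprc-negative barcodes and macrophages 11 did not overlap, 3 higher (Brd3, Hdac2 and Hdac3) and 8 lower (Hat1, Sirt2, Kat6a, Hdac5, Sirt7, Baz1a, Ep300 and Slc25a1), where 59.9% of all genes did not, 27.3% higher and 32.6% lower.

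Summed over each role, the levels of Ptprc-negative barcodes overlapped those of both other classes across the 2 libraries. The supply genes summed to 231 ± 73.9 CPM in Ptprc-negative barcodes, 216 ± 12.0 CPM in T cells and 233 ± 51.6 CPM in macrophages (SD, n = 2 libraries). The writers summed to 188 ± 42.2 CPM in Ptprc-negative barcodes, 216 ± 32.3 CPM in T cells and 248 ± 57.8 CPM in macrophages. They were lower in Ptprc-negative barcodes than in macrophages within each library, by a log2 ratio of -0.39 in replicate 1 and -0.41 in replicate 2, although the levels overlapped across libraries (158 and 218 CPM against 208 and 289 CPM). The erasers summed to 217 ± 70.6 CPM in Ptprc-negative barcodes, 275 ± 34.8 CPM in T cells and 221 ± 13.7 CPM in macrophages. They were higher in T cells than in macrophages by 0.25 and 0.38 and lower in Ptprc-negative barcodes than in T cells by log2 ratios of -0.59 and -0.17. The readers summed to 291 ± 80.7 CPM in Ptprc-negative barcodes, 272 ± 2.75 CPM in T cells and 282 ± 0.114 CPM in macrophages. The supply and reader sums of Ptprc-negative barcodes differed from those of T cells and macrophages in opposite directions in the 2 libraries. Brd7 made up 34.9% of reader UMIs of the class in replicate 1, where the class stood above the others, and Hdac1 25.5 and 28.9% of eraser UMIs. The sums are descriptions with no test.

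**Figure D4:**
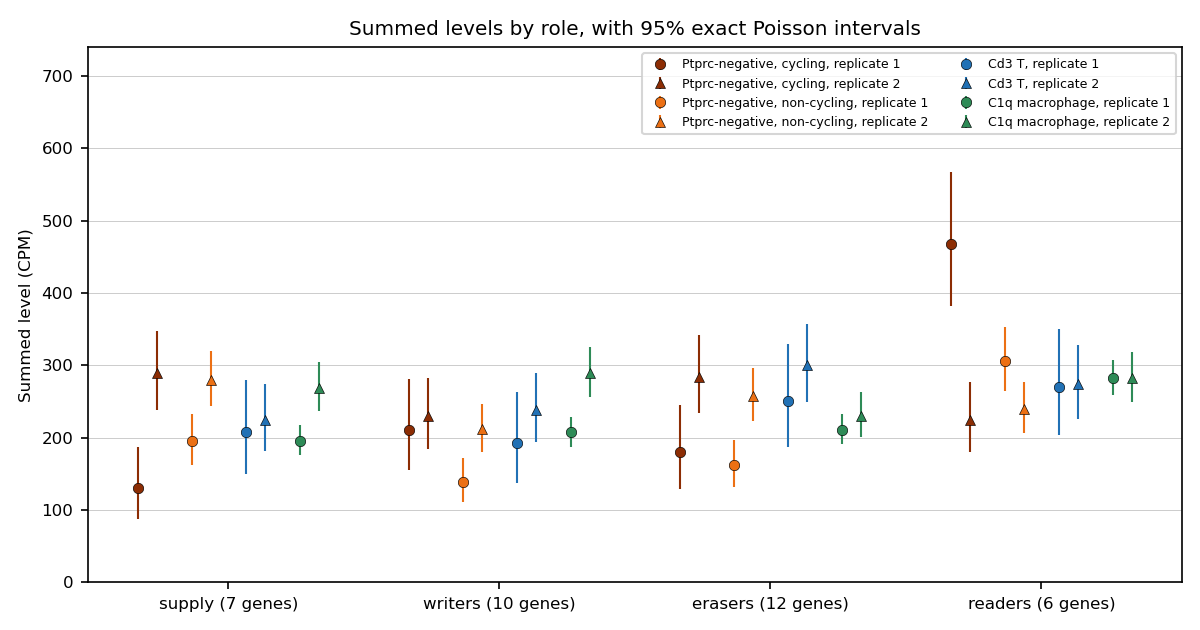
Summed level of the genes of each role (vertical axis, CPM) with 95% exact Poisson intervals in cycling and non-cycling Ptprc-negative barcodes, T cells and macrophages, 1 point per library. Readers in cycling Ptprc-negative barcodes stood at 225 CPM in replicate 2 and 468 CPM in replicate 1, and other role sums lay between 130 and 306 CPM.

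Between cycling and non-cycling Ptprc-negative barcodes the writers summed to 221 ± 13.1 CPM against 176 ± 51.3 CPM, higher in both libraries (log2 ratios 0.60 and 0.12). The erasers summed to 232 ± 73.7 CPM against 210 ± 67.6 CPM, also higher in both (0.15 and 0.14), but this reversed without Hdac1 and with barcodes thinned to an equal depth. The supply genes summed to 210 ± 112 CPM against 238 ± 59.5 CPM and the readers to 346 ± 172 CPM against 273 ± 47.2 CPM, with opposite signs in the 2 libraries.

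Between T cells and macrophages 0 of 24 members were called, where 5.44% of all genes were, 2.8% higher and 2.64% lower. An unadjusted edgeR p under 0.05 was found for 3 members, Slc25a1, Hat1 and Hdac1, and for 1250 of all 6392 genes, so 3 of 24 is no excess. DESeq2 called 0 members, with 0 at an unadjusted p under 0.05. Slc25a1 had the lowest adjusted p, 0.133, at the levels given above.

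A wider list of 113 genes around the module, 72 of them tested, was read in the same way. The background over macrophages was 42.5% of all genes, 18.6% higher and 23.9% lower. Over macrophages 7 were higher and 5 lower in Ptprc-negative barcodes, and edgeR called 0 in the comparison with T cells, between cycling states or between T cells and macrophages (6, 1 and 3 at an unadjusted p under 0.05). Over all 6392 genes 1740, 542 and 1250 had such a p in these comparisons, so the wider list shows no excess either. Me1, the malic enzyme that makes NADPH for lipid synthesis, had 15 and 36 UMIs in Ptprc-negative barcodes (17.7 and 31.1 CPM), against 3 and 1 UMIs in macrophages (1.57 and 1.07 CPM). The CPM ratio was 11.3 in replicate 1 (95% counting interval 3.19 to 60.7) and 29.2 in replicate 2 (4.91 to 1184), with an edgeR adjusted p of 0.000525. Fasn, the fatty acid synthase that consumes cytosolic acetyl-CoA by way of malonyl-CoA, had 56.7 and 38.9 CPM, against 13.6 and 5.34 CPM in macrophages (log2 fold change 2.42, SE 0.38, edgeR adjusted p = 0.000281). T cells also stood above macrophages, with Me1 at 9.64 and 11.8 CPM (2 and 5 UMIs) and Fasn at 28.9 and 14.2 CPM (6 and 6 UMIs). Neither gene was called between Ptprc-negative barcodes and T cells. Acly, which makes cytosolic acetyl-CoA, was not called in either direction over macrophages (-0.45, SE 0.32, edgeR adjusted p = 0.288).

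Of the wider writer complexes 3 of 21 tested genes were higher and 2 lower over macrophages. Over all genes 18.6% were higher and 23.9% lower, which is the background for each count here, and no excess is read from them. Mcrs1, a subunit of the NSL acetyltransferase complex, had 50.8 and 38.1 CPM in Ptprc-negative barcodes, against 17.3 and 13.9 CPM in macrophages (log2 fold change 1.61, SE 0.35, edgeR adjusted p = 0.00271). Ing4, which binds methylated histone H3 for the Kat7 complex, had 10.6 and 8.65 CPM, against 26.2 and 32.0 CPM (-1.54, SE 0.42, 0.00998). Brpf1, the scaffold of the Kat6a complex, had 8.27 and 19.0 CPM, against 23.1 and 40.6 CPM (-1.19, SE 0.35, 0.0163). Of the wider supply genes 3 of 14 were higher and 1 was lower, Hadhb, a mitochondrial enzyme of fatty acid oxidation that yields acetyl-CoA, at 16.5 and 15.6 CPM against 29.9 and 39.5 CPM (-1.26, SE 0.40, 0.0241). Of the wider erasers and their complexes 1 of 21 was higher and 1 lower, and of the wider readers 0 of 16 were higher and 1 lower. The calls of Ing4, Brpf1 and Hadhb ended with DESeq2 (adjusted p = 0.0811, 0.119 and 0.133), and those of Me1, Fasn and Mcrs1 held in each setting that tested them.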

How the data were processed

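The deposited files hold raw UMI counts per gene and barcode that were not normalised. Cell Ranger 6.0.1 wrote them, per the file headers. The submitters' processing notes also name Seurat 4.0.1 and the build mm10, and for the gene annotation no name is given in the sources used here. The members, the wider lists and the gates were chosen with earlier results of these data known. Kept barcodes had at least 300 genes with a UMI, under 10% of UMIs on mitochondrial genes, and were not called doublets by Scrublet (scanpy 1.11.5), which called 10 and 36, 0.880% of 5225. Raw UMIs were summed per class and library (8 sums of 207373 to 1907767 UMIs). The edgeR 4.0.16 quasi-likelihood test used TMM factors, the default filter on low counts and the library as a block, with 3 residual degrees of freedom and Benjamini-Hochberg adjustment over all genes tested. The Ptprc-negative class entered comparisons as the mean of its cycling and non-cycling sums. The replicate number is the library, so equally numbered classes come from 1 library and are paired by construction. The cycling interaction used sums with macrophages also split. DESeq2 1.42.0, other scalings, gates, filters, thinning to 1000 UMIs and a fit without the block were alternatives. Poisson and ratio intervals (95%, exact) cover counting error only. Gene coordinates are from GENCODE M21 on GRCm38, and promoters from RefSeq. All 35 members were accounted for. In the Ptprc-negative class members were given their own levels, except Kat2b, Kat5, Kat6b, Kat8, Hdac4, Sirt3 and Sirt6, which were given by ranges. Those named with test values were the called ones, Acly, Acss2, Ep300 and Kat2a by rule, the others after their values were seen. Of the wider list the 3 largest called changes per direction are named. The fit was tested on simulated data.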

Additional observations from a re-analysis of the deposited data

How the results depend on the processing

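The classes rest on 2 libraries and on gates of a few UMIs, and depth limits most members: 11 of 35 could not be tested and the others had wide errors. Over the alternatives, 79 role-sum ratios stayed within the spread between libraries, 14 moved further and 3 reversed. The 79 include the ratios of each library alone, which stay within that spread by construction and so show no robustness. Of the gene counts, 37 stayed within 1.5 times the reported one and 24 did not. The direction of each called gene held in each setting that gave a value. Genes called against T cells, 839 in the fit as reported, numbered 350 with no replicate block, 520 with 1 Ptprc-negative class, 497 with at most 1 C1q UMI in T cells and 2767 with mixed barcodes as T cells. Against macrophages, 2714 became 1541 without the block and 1410 thinned to 1000 UMIs. Between cycling and non-cycling barcodes, 11 became 2 without the block, 116 with no filter on low counts, 5 with 4 more leukocyte genes at 0, 3 with 1000 or more UMIs a barcode, 18 with 2 or more Cd3 UMIs, 36 with mixed barcodes as T cells, 4 with the stricter cell filter and 35 with no stromal limit. Between T cells and macrophages, 348 became 6 without the block, 206 with DESeq2, 657 with no filter, 130 with 2 or more Cd3 UMIs, 530 with at most 1 C1q UMI, 64 with mixed barcodes, 137 thinned and 217 with the stricter cell filter. The interaction gave 3 genes, 0 without the block and 12 with no filter. The block changed the calls of Ep300, Baz1a, Hadhb (adjusted p = 0.0670 without it) and Brpf1 (0.0774) and no other named call. Leaving out 1 library left no residual degrees of freedom, so the folds by library in the report have no test. They weight the cycling and non-cycling sums of the Ptprc-negative class equally, although the cycling sums hold fewer UMIs.

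Summed writers over T cells (log2 ratio -0.21) stood at -0.35 thinned and -0.62 with 2 or more Cd3 UMIs, and over macrophages (-0.40) at -0.48 thinned, -0.29 with no stromal limit and -0.32 without Hat1. Writers in T cells over macrophages (-0.19) reversed to 0.22 with 2 or more Cd3 UMIs and were -0.025 without Hat1. Erasers over T cells (-0.38) were -0.72 with 2 or more Cd3 UMIs. Erasers in cycling over non-cycling barcodes (0.15) reversed to -0.053 thinned and -0.00088 without Hdac1, and were 0.052 with no stromal limit. Erasers in T cells over macrophages (0.31) were 0.65 with 2 or more Cd3 UMIs and 0.10 without Hdac1. Readers in T cells over macrophages (-0.05) were -0.023 thinned, -0.12 with 2 or more Cd3 UMIs, -0.15 with at most 1 C1q UMI and -0.16 without Brd2. The cause of these changes was not tested.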
